A study of Homo sapiens with 4 samples.

Results

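Reporter peaks of MDA-MB-231 cells given both drugs were compared with those of cells given the solvent, at places where the 2 deposited peak lists could be set against each other. Members were regions on chromosomes 1 to 22 and X. A peak was shared when its summit lay within 250 bp of a summit in the other list, each being the other's nearest. A peak was called combination-only or DMSO-only when it was at least 1.5 times as long as the fragment size in its file header, had its summit more than 2 bp from its middle and overlapped no peak of the other list. This gave 6423 shared peaks, 3673 combination-only peaks and 2829 DMSO-only peaks, from 57174 combination and 47822 DMSO peaks. The members were selected on the same peak calls and heights that are described below, so the counts and ratios are descriptions and no test is attached to them.

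MDA-MB-231 is an established human breast cancer line of mesenchymal, triple-negative type. Its own sheared genomic DNA was the reporter library, the drugs were in the medium before the library was transfected, and RNA was extracted 8 h after transfection. The combination was 10 µM SHP1705, a stabilizer of the clock protein CRY, with 100 nM MG132, a proteasome inhibitor, and the control was DMSO. Libraries of 10 µM SHP1705 alone and 100 nM MG132 alone, also taken at 8 h and also of 1 library each, were used as readouts that the choice of members had not seen.

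In STARR-seq, a genomic fragment sits in the transcribed part of a reporter plasmid, so that a fragment with enhancer activity raises the amount of its own sequence among the reporter RNAs. CRY proteins repress the CLOCK and BMAL1 transcription factors, which bind E-box sequences, and are themselves removed by ubiquitin ligases and the proteasome. MG132 blocks the proteasome, which lets ubiquitinated proteins accumulate and is known to evoke heat shock, oxidative stress and unfolded protein responses.

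The comparison addressed whether fragments changed in activity when CRY was stabilized while the proteasome was inhibited. With 1 library per treatment, every ratio compares 2 libraries and has no replicate check. Intervals are 95% and cover counting error only, and since duplicate fragments had been kept, fragments are not independent molecules. The 2 libraries had similar depth, with 28331486 fragments in the combination and 29717604 in DMSO, so that 1 fragment was worth 0.0353 and 0.0337 PPM, where PPM is the number of fragments over a position per 1000000 fragments of the library. The SHP1705 library was deeper, with 118324303 fragments, and the MG132 library held 27289266.

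Few members lay in a promoter. Of the shared summits, 1 lay in the promoter window of a protein-coding gene (250 bases before to 50 after the annotated start) and 9 in that of a long noncoding RNA. Of the one-list peaks, 5 combination-only and 3 DMSO-only summits lay in a coding promoter window, and 1 and 6 in a noncoding one. Promoters of 5 such genes are shown because one-list peaks covered these regulatory sequences and because each holds letters of a clock or stress motif. Each is the 250 bases before the start, from RefSeq for GRCh38.p14, written in the direction of the gene, with any motif letters in capitals.

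FANCD2 (chr3:10026187-10026436, + strand): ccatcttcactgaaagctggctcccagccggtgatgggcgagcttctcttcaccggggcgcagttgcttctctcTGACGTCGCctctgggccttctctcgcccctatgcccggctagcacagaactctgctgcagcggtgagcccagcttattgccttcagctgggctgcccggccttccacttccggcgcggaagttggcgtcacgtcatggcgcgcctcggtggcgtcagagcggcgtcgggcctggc
CCDC169 (chr13:36297815-36298064, - strand): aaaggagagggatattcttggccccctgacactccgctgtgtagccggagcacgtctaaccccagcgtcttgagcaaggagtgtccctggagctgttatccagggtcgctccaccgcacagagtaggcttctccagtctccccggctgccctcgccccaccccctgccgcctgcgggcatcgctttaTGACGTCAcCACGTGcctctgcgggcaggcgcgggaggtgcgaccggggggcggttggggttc
CTAGE15 (chr7:143571551-143571800, + strand): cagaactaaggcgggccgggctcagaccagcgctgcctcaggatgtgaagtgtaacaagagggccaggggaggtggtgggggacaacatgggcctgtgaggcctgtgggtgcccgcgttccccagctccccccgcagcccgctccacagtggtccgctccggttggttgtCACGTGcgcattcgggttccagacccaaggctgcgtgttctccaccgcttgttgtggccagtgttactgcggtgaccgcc
TAF11L3 (chr5:17518117-17518366, + strand): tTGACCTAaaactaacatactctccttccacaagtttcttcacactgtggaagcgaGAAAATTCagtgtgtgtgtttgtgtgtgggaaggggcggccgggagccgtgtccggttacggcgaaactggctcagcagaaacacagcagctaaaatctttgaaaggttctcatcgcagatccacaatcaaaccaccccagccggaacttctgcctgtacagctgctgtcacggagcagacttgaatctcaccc
RCE1 (chr11:66843191-66843440, + strand): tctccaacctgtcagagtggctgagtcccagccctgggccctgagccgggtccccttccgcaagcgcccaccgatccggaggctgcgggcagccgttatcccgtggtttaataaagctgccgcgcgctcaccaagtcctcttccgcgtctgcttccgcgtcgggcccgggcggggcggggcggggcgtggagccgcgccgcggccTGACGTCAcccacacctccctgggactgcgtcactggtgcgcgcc

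The capitals in FANCD2, which encodes a DNA crosslink repair protein, match the antioxidant element TGACNNNGC. Those in CCDC169 match the cyclic AMP element TGACGTCA and the E-box CACGTG, which stand side by side, and CTAGE15 has an E-box. Those in TAF11L3 match the RORE core TAGGTCA on the other strand and the heat shock element GAANNTTC. Those in RCE1, which encodes a protease that trims prenylated proteins, match TGACGTCA. A match is a description of letters on either strand and not a binding site, and the TGAC of one motif can be part of another. Over all 34961 RefSeq promoter windows, 7.27% held the E-box, 1.85% the cyclic AMP element, 1.85% the RORE core, 13.4% the antioxidant element and 6.79% the heat shock element. The 25 windows at distinct places that held a member summit included 3, 2, 2, 3 and 3 with these motifs, in the same order. Both RORE windows, and 2 of the 3 heat shock windows, were those of TAF11L3 and its copy TAF11L5. The 250 bases before the start are identical in these genes, so the same sequence was counted in 2 windows. The letters of AP-1 (TGACTCA), D-box (TTATGTAA), NF-kB (GGACTTTCC), CARE (TGATGCAA) and TEAD (ACATTCC) were in 0 of the 25 windows, and were in 4.92%, 0.890%, 0.372%, 0.864% and 3.47% of all windows.

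The FANCD2 peak reached 103 fragments in the combination, and its place had no MG132 peak and a SHP1705 peak of 1.30 PPM. The CCDC169 promoter, which serves the CCDC169-SOHLH2 readthrough as well, reached 274 fragments, and CTAGE15 reached 242. Neither place had a peak in a single-drug list. The RCE1 promoter reached 568 fragments in DMSO and had no peak in the other 3 lists. TAF11L3 had a combination-only peak of 351 fragments, while the promoter of TAF11L5, its copy on the same chromosome, held the single shared coding promoter peak, with 90 fragments in the combination and 80 in DMSO. The printed 250 bases of TAF11L3 are identical to those of TAF11L5 at 250 of 250 positions, so the share of fragments placed at each copy is uncertain. The other one-list coding promoters were those of SCGB2B2, a combination-only peak of 109 fragments, and of PLSCR1 and WT1, DMSO-only peaks of 296 and 295 fragments.

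The heights of shared peaks were close in the 2 libraries at the centre and wide at the edges. Height is the pileup at the summit, the count of fragments lying over it, in PPM. The median log2 ratio of combination to DMSO over the 6423 shared peaks was -0.11, with quartiles of -0.57 and 0.38, and 57.0% of the ratios lay below 0. In the combination, 752 peaks (11.7%) were at least 2-fold higher and 915 (14.2%) at least 2-fold lower. The order of these 2 counts rests on the scaling, since setting the median ratio to 0 gives 851 higher and 796 lower. The whole range ran from -8.06 to 6.18. At the median pileups of 209 and 235 fragments, counting error alone gives an interval of 0.28 to either side of a log2 ratio, and the quartiles lie further from the median than that.

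**Figure D1:**
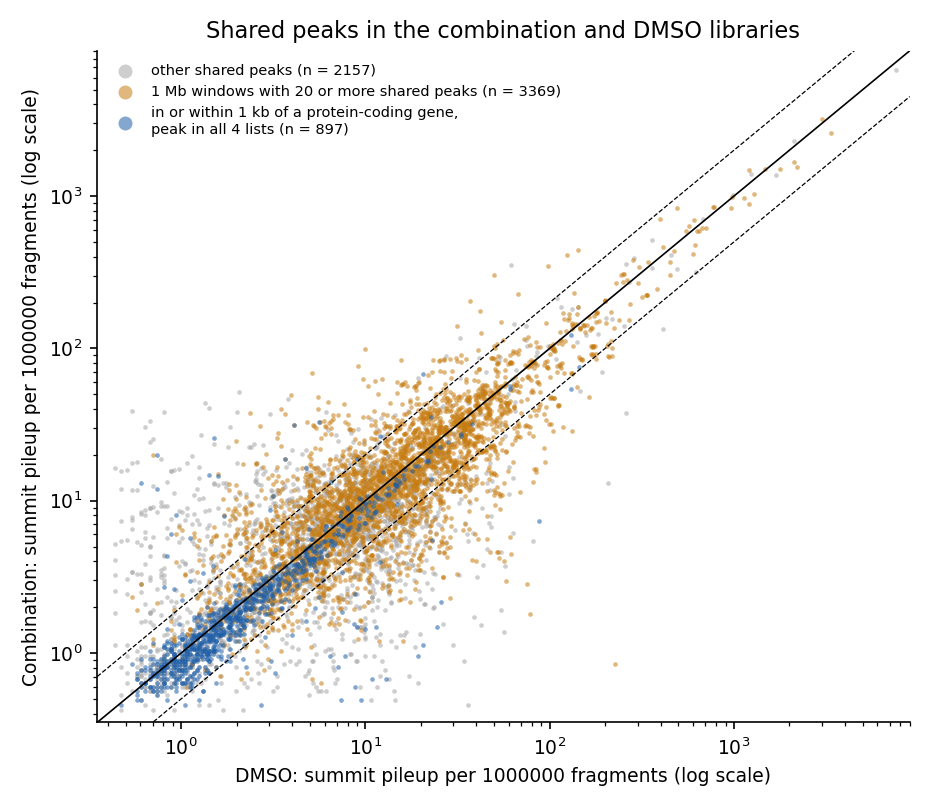
Each point is a shared peak, with its summit pileup in PPM in DMSO on the x axis and in the combination on the y axis, both on log scales, the solid line marking equal heights and the dashed lines a 2-fold difference. The 897 peaks in or near protein-coding genes that all 4 lists held lie in a narrow band just under the line of equal heights, while peaks of the dense windows and the remaining peaks spread past both dashed lines.

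The spread differed by where the peak lay, more than the centre did. At gene ends, within 1 kb of where a protein-coding gene starts or stops, 560 shared peaks had a median of -0.16 and 8.57% were past 2-fold in either direction. Elsewhere inside a protein-coding gene, 964 had a median of -0.17 and 22.8% were past 2-fold. On a noncoding gene or pseudogene, 545 had a median of -0.19, with 109 past 2-fold. Outside every annotated gene, 4354 had a median of -0.06 and 29.6% past 2-fold. Peaks at gene ends therefore varied least, and those outside genes varied most, but their heights differed too. Median pileups in the combination and DMSO were 43 and 49 fragments at gene ends, and 292 and 320 outside genes. Place and height were not separated.

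Many of the shared peaks were packed into a few stretches of the genome. Windows of 1 Mb with 20 or more shared peaks numbered 56, on 21 chromosomes, and held 3370 (52.5%) of the shared peaks. The fullest, chr7:59000001-60000000, held 151, and chr19:25000001-26000000 held 134, none of them in an annotated gene. The median log2 ratio of a window ran from -0.64 to 1.35, and 31 of the 56 medians lay below 0. The tallest shared peak, chr1:125179563-125180644, lay outside every gene and reached 6752 PPM in the combination and 7606 in DMSO. No genome sequence or repeat filter was used, so what share of these peaks lies on repeated sequence was not tested. Outside genes and outside these windows, 992 shared peaks were the most variable class by place, with 42.5% past 2-fold.

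Chromosomes differed little in the centre of the ratios. The median log2 ratio was below 0 on 21 of 23 chromosomes, from -0.30 on chromosome 15 to 0.01 on chromosome 18. One-list peaks were more numerous in the combination on every chromosome but chromosome 5, where there were 202 combination-only and 211 DMSO-only peaks. Chromosome X had the highest ratio of these counts, with 107 and 58. The combination list was also the longer, and one-list peaks were 6.42% of it and 5.92% of the DMSO list. Shares by chromosome were not computed.

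Peaks that both single-drug lists held as well were more even between the combination and DMSO. MG132 and SHP1705 peaks both overlapped 3679 (57.3%) of the shared peaks, of which 19.1% were past 2-fold. Of the 1407 shared peaks with neither, 35.5% were. The contrast was wider in genes. Of 897 genic peaks in all 4 lists (inside or within 1 kb of a protein-coding gene), 27 were at least 2-fold higher and 39 at least 2-fold lower, 7.36% in all, with a median of -0.18 and quartiles of -0.37 and 0.03. Of 368 genic peaks in neither single-drug list, 33.7% were past 2-fold, with quartiles of -0.77 and 0.49. The latter were also taller, with median pileups of 202.5 fragments in the combination and 258 in DMSO, against 45 and 53 for the 897. The 449 pseudogene peaks in all 4 lists were as even as the genic ones, with a median of -0.19 and 7.35% past 2-fold.

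**Figure D2:**
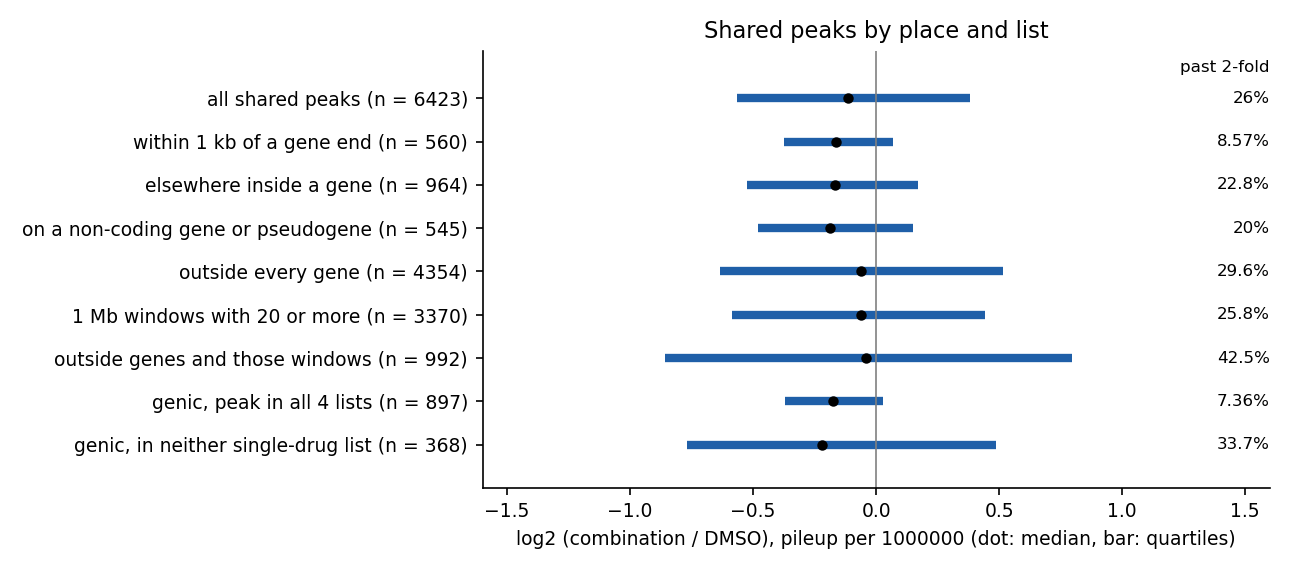
The x axis is the log2 ratio of combination to DMSO, with a dot at the median and a bar from the lower to the upper quartile for each class of shared peaks, and the share past 2-fold at the right. The bars of gene-end peaks and of genic peaks in all 4 lists are the narrowest, and the bar of peaks outside genes and outside the dense windows is the widest.

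Among the 1288 shared peaks with the fewest fragments, 26 to 151 in both libraries together, 11.5% were past 2-fold. In the 4 taller groups of equal size, 25.3% to 31.5% were. A shared peak had to be called in both lists, where the lowest pileups were 12 in the combination and 13 in DMSO. A low pair therefore had little room for a large ratio, and low places where either list had no peak were not counted. Whether low peaks vary less cannot be decided from these shares.

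Gene-end peaks common to all treatments lay mostly at 3′ ends. Of the shared peaks in all 4 lists, 467 lay within 1 kb of a protein-coding gene end, and the RefSeq promoter table gave a strand for 380 of the genes concerned (81.4%). The nearest end was the 3′ end for 353 of the 380, or 92.9% (89.9 to 95.1), and the start for 27. Over all combination peaks near a gene end with a known strand, 64.5% were at the 3′ end. The 353 peaks had a median log2 ratio of -0.18, and 5.95% were past 2-fold. For one-list peaks, a strand was known for 75.2% of combination-only and 75.5% of DMSO-only gene-end peaks, too few for this comparison.

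The tallest of these 3′-end peaks were chosen after their values were seen. At GAPDH, which encodes a glycolytic enzyme, the summit (chr12:6537579-6538325) was covered by 518 fragments in the combination and 632 in DMSO, a log2 ratio of -0.22 (-0.39 to -0.05). At COL6A2, a collagen VI chain, there were 395 and 480 fragments, a ratio of -0.21 (-0.41 to -0.02). At TMSB4X, which encodes the actin-binding thymosin beta 4, there were 368 and 457, a ratio of -0.24 (-0.45 to -0.04). The combination was slightly lower at each, by about the median of all genic peaks in the 4 lists. At EEF2, a translation elongation factor, there were 227 and 303 fragments, a ratio of -0.35 (-0.60 to -0.09). At FN1, which encodes fibronectin and whose 3′ end lies beside ATIC, there were 257 and 280, a ratio of -0.05 (-0.30 to 0.19). TAGLN, the actin-binding transgelin, had 257 and 235 fragments and a ratio of 0.20 (-0.06 to 0.46), the only one of the 12 tallest above 0.

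The single-drug libraries at the same 897 genic peaks gave different heights. The median log2 ratio to DMSO was 0.11 for MG132 and 4.93 for SHP1705, against -0.18 for the combination. These ratios share the DMSO library and are set side by side only. In the dense windows, at the 2220 shared peaks that all 4 lists held, the medians were 0.06 for MG132, -3.33 for SHP1705 and -0.03 for the combination. GAPDH reached 537 PPM with SHP1705, 22.2 PPM with MG132, 21.3 PPM with the solvent and 18.3 PPM with both drugs. The combination library, which contained SHP1705 at the same dose, thus lay near DMSO and MG132 and not near SHP1705 at both kinds of peak. At UBB, a polyubiquitin gene, MG132 had 1226 fragments, DMSO 384 and the combination 312.

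**Figure D3:**
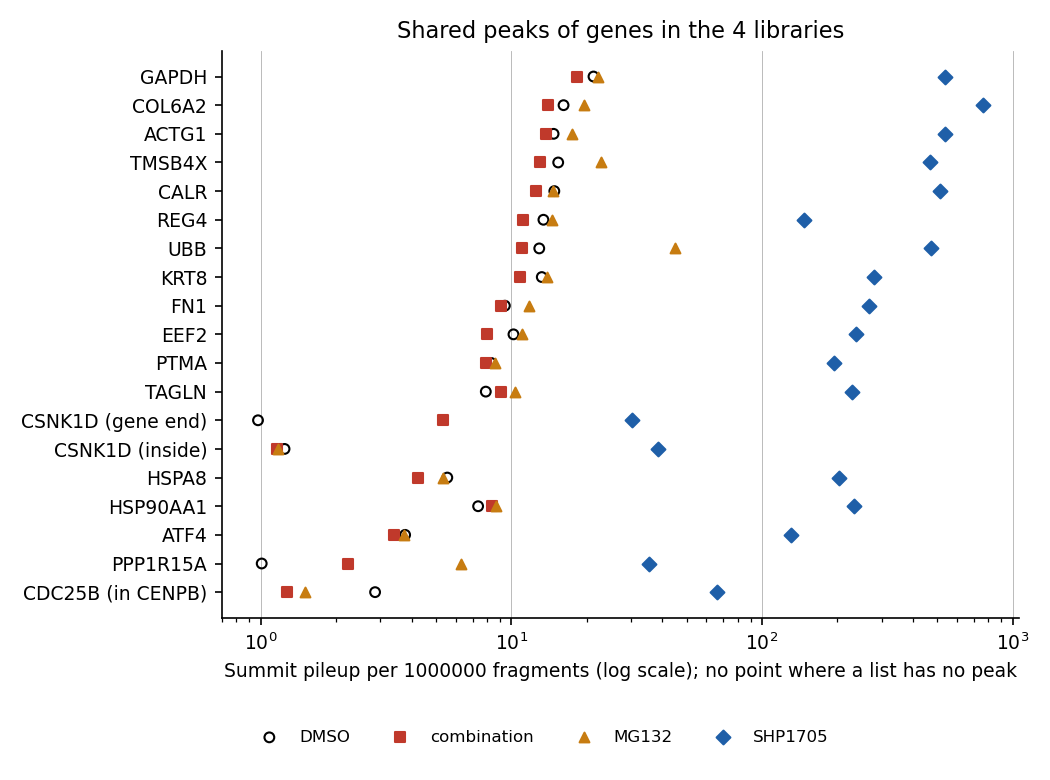
The x axis is the summit pileup in PPM on a log scale, with 1 marker per library for 19 shared peaks named by gene, and no marker where a list has no peak. SHP1705 lies far to the right at every gene, the other 3 libraries lie close together at most, and the exceptions among them are the CSNK1D gene end, PPP1R15A, UBB and the CENPB peak near CDC25B.

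The shared peaks that differed most near genes were ranked by their ratio. Among 1112 shared peaks inside or within 10 kb of a protein-coding gene with at least 100 fragments in the 2 libraries together, the 10 of highest ratio were taken. In 9 of the 10, the deposited fold (height over the authors' local background) was at least 20 in the combination, and in 0 was it so in DMSO. Of all shared peaks with such a fold in 1 library only, 55.3% were past 2-fold, against 22.2% with it in neither and 23.5% with it in both. The fold and the ratio rest on the same heights, so a fold that is high in 1 library only favours a large ratio. Duplicates had been kept, and how many molecules such piles hold was not tested. The 10 included peaks in or near FCRL3, SCML4, CDKN2A, GPX8, TWF1, COLQ, KHDRBS2, ANTXR2 and TP63. At chr1:157708891-157709385, on the pseudogene SONP1 and 8398 bp from the Fc receptor-like gene FCRL3, 943 fragments in the combination faced 20 in DMSO, a log2 ratio of 5.63 (4.99 to 6.35). Near CDKN2A, the p16 tumour suppressor gene, 725 faced 21 at chr9:21959540-21960084, a ratio of 5.18 (4.56 to 5.88). MG132 had 19 fragments there, or 0.70 PPM, against 25.6 PPM in the combination and 0.71 PPM in DMSO. The reporter library was this line's own DNA, and whether that DNA holds this place was not tested. Beside the start of TP63, which encodes a basal epithelial transcription factor, 762 faced 38, a ratio of 4.39 (3.92 to 4.90).

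The 10 of lowest ratio lay in or near MCF2, TBC1D28, TOM1L2, UGT2B17, PTPRQ, LTBP1, NHERF1, TVP23C, GNB2 and NBAS. In MCF2, on chromosome X, 39 fragments in the combination faced 1684 in DMSO, a log2 ratio of -5.36 (-5.86 to -4.91). In UGT2B17, which encodes a steroid-glucuronidating enzyme, 27 faced 573, a ratio of -4.34 (-4.95 to -3.78). In LTBP1, which encodes a latent TGF-beta binding protein, 17 faced 344, a ratio of -4.27 (-5.07 to -3.57). At the 3′ end of GNB2, a G protein beta subunit gene, 32 faced 608, a ratio of -4.18 (-4.74 to -3.67).

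The MG132 library offered a height that the choice had not used. Of the 10 highest, 6 had an MG132 peak, and in 5 its height was nearer to DMSO than to the combination on the log scale. Of the 10 lowest, 8 had one, and in 5 it was nearer to the combination. Over all shared peaks with an MG132 peak, 244 of 480 that were at least 2-fold higher in the combination were nearer DMSO (50.8%, 46.4 to 55.3), and 221 of 542 that were at least 2-fold lower (40.8%, 36.7 to 45.0). Over the genic shared peaks at least 2-fold higher in the combination, 48 of 115 had an MG132 peak, and 37 of those 48 were nearer DMSO (77.1%, 63.5 to 86.7). Of the genic peaks at least 2-fold lower, 65 of 153 had one, and 23 of the 65 were nearer DMSO (35.4%, 24.9 to 47.5). Most genic peaks past 2-fold had no MG132 peak and are left out of these shares. Among the genic peaks that had one, MG132 leaned to whichever library was lower. In the dense windows no such lean was seen for the higher peaks, with 141 of 297 nearer DMSO (47.5%, 41.9 to 53.1), and for the lower peaks 154 of 362 were (42.5%, 37.6 to 47.7). All these peaks were picked for the size of their ratio, so the MG132 height is no check of a drug effect, which was not tested.

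The 5 tallest shared peaks inside genes had ratios below 0, of different size. The tallest lay at a DUX4 copy in a repeat array at the end of chromosome 4, with 3444 fragments in the combination and 3861 in DMSO, a log2 ratio of -0.10 (-0.16 to -0.03), and copies of that array cannot be told apart. In ADAP1, 2140 faced 4305, a log2 ratio of -0.94 (-1.01 to -0.86), and in DIP2C 1527 faced 3864, a ratio of -1.27 (-1.36 to -1.18). In CCSER1, on the thymosin pseudogene TMSB4XP8, 1614 faced 1803, a ratio of -0.09 (-0.19 to 0.01). At ACTB, cytoskeletal actin, 1523 faced 1803, a ratio of -0.17 (-0.27 to -0.08).

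Some genic peaks that all 4 lists held differed as well. These were picked for their ratio, among peaks whose deposited fold (height over the authors' local background) was under 20 in both libraries, and are given as values. In ATG7, an autophagy conjugation enzyme gene, 927 fragments in the combination faced 167 in DMSO, a log2 ratio of 2.54 (2.30 to 2.79). At SCARB2, which encodes a lysosomal membrane protein, 160 faced 33, a ratio of 2.35 (1.80 to 2.93). In CREB3L1, which encodes a membrane-bound transcription factor of the endoplasmic reticulum, 77 faced 24, a ratio of 1.75 (1.07 to 2.48). The lower side held PLCD3, a phospholipase C gene, with 14 against 220 and a ratio of -3.91 (-4.80 to -3.13). ADD1, a membrane skeleton adducin gene, had 42 against 267 and a ratio of -2.60 (-3.11 to -2.13). GPX3, a secreted glutathione peroxidase gene, had 53 against 221 and a ratio of -1.99 (-2.45 to -1.55).

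Genes of the pathways the drugs act on were examined by 14 lists with shared peaks, a peak counting for a gene when it lay inside it or within 10 kb. Over all 19974 protein-coding genes, 10.7% had a shared peak, 7.50% a combination-only and 5.43% a DMSO-only peak, and the median log2 ratio of genic and near-genic shared peaks was -0.17, with 7.73% of them at least 2-fold higher in the combination and 10.4% at least 2-fold lower. Listed genes together had 76 shared peaks with a median of -0.13. Of the 59 that all 4 lists held, 1 was at least 2-fold higher and 1 at least 2-fold lower. Of the 17 that were not in all 4, 4 and 2 were.

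**Figure D4:**
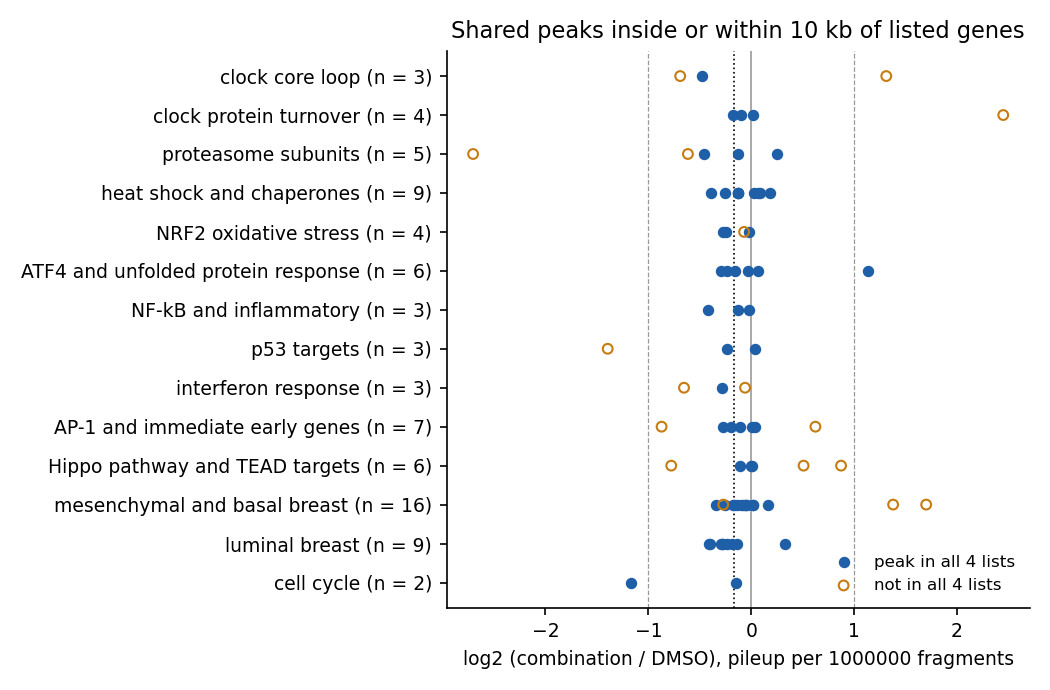
Each marker is a shared peak inside or within 10 kb of a listed gene, placed on the x axis by its log2 ratio of combination to DMSO, filled where all 4 lists hold a peak and open where they do not. Dashed lines mark 2-fold differences and the dotted line the median near all protein-coding genes, -0.17, and the filled markers lie between the dashed lines at all but 2 peaks.

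Among 21 core clock genes, 3 (14.3%) had a shared peak, against 10.7% of all protein-coding genes. BHLHE40, which encodes an E-box repressor, had 28 fragments in the combination and 41 in DMSO at its gene end, a log2 ratio of -0.48, and all 4 lists held this peak. In NPAS2, a partner of BMAL1, 189 faced 320, a ratio of -0.69. In RORB, a nuclear receptor that binds RORE sequences, 689 faced 291, a ratio of 1.31. MG132 had no peak at NPAS2 or RORB. In PER2, a clock repressor gene, DMSO had a one-list peak of 146 fragments (chr2:238260769-238261526), which no other list held. RORA held a combination-only peak of 221 fragments and a separate DMSO-only peak of 193. The DMSO-only peaks counted for PER3 and TEF lay in the neighbouring genes VAMP3 and ZC3H7B.

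Genes that turn clock proteins over gave 3 of 18 (16.7%) with a shared peak, against 10.7% of all protein-coding genes. CSNK1D, which encodes a kinase that phosphorylates PER proteins, had 151 fragments in the combination and 29 in DMSO near its gene end (chr17:82238804-82239243), a log2 ratio of 2.45, where SLC16A3 also lies. Another peak inside CSNK1D had 33 and 37 fragments, a ratio of -0.10, so the gene's 2 peaks gave different ratios. DDB1, a subunit of a ubiquitin ligase, had 26 and 27, a ratio of 0.01. Combination-only peaks lay in CUL1 (259 fragments) and BTRC (108), which encode parts of the SCF ligase that acts on PER, and in CSNK1A1 (24). DMSO had a one-list peak of 25 fragments at the end of CSNK1E.

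Proteasome genes numbered 40, with shared peaks at 5 (12.5%), combination-only at 6 (15.0%) and DMSO-only at 2 (5.0%). Over all protein-coding genes these shares were 10.7%, 7.50% and 5.43%. In PSMD12, a regulatory particle subunit gene, 60 fragments in the combination faced 410 in DMSO, a log2 ratio of -2.70, with no MG132 peak. PSMD7 had 34 and 39 fragments, a ratio of -0.13, and PSMD14, which encodes a deubiquitinase of the same particle, had 43 and 38, a ratio of 0.25. Several one-list peaks counted here lay in a neighbouring gene, such as that of ADRM1 in LAMA5 and that of PSMC3 in SLC39A13. PSMD13 had a combination-only peak of 182 fragments at its gene end, and PSMD8 one of 65.

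Of 26 heat shock and chaperone genes, 8 (30.8%) had shared peaks, against 10.7% of all genes. Combination-only peaks counted for 4 genes (15.4%) and DMSO-only peaks for 2 (7.69%), against 7.50% and 5.43% of all genes. The combination-only peak counted for HSPA2 lay in ZBTB1. Shared peaks numbered 9, all 9 in the 4 lists and 0 past 2-fold, with a median of -0.13 and a range of -0.39 to 0.18. Over all 897 genic peaks in the 4 lists, 7.36% were past 2-fold, so that 0 of 9 does not set these genes apart. HSP90AA1, which encodes stress-inducible HSP90, had 237 fragments in the combination and 219 in DMSO, a log2 ratio of 0.18. HSPA8, the constitutive HSC70 gene and chosen after its value was seen, had 120 and 165, a ratio of -0.39. HSPB1, the small heat shock protein HSP27, had 87 and 86, a ratio of 0.09, and MG132 reached 3.92 PPM there against 3.07 and 2.89. At DNAJB1, an HSP40 gene, the combination had a one-list peak of 399 fragments at a gene end and DMSO a separate one of 151 inside the gene.

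Shared peaks of the other stress lists were similar at most places. In the list of ATF4 targets and the unfolded protein response, 6 of 21 genes (28.6%) had a shared peak and the median was -0.09. Combination-only peaks counted for 4 genes (19.0%) and DMSO-only peaks for 2 (9.52%), against 7.50% and 5.43% of all genes. The combination-only peaks of ATF3 and PDIA4 lay outside every gene, and that of HSP90B1 had 17 fragments. ATF4 itself had 96 fragments in the combination and 112 in DMSO, a log2 ratio of -0.15, and HSPA5, the endoplasmic reticulum chaperone BiP, had 218 and 234, a ratio of -0.03. PPP1R15A, which directs a phosphatase to the translation factor eIF2alpha and was chosen after its value was seen, had 63 and 30, a ratio of 1.14. Its height was 2.22 PPM with both drugs, 1.01 PPM with DMSO and 6.30 PPM with MG132 alone. Of the NRF2 list, 4 of 22 genes (18.2%) had a shared peak, and 0 of these peaks were past 2-fold. Among these genes were TXNRD1 (511 and 648 fragments, ratio -0.27, on the pseudogene RPL18AP3) and NQO1 (45 and 48, ratio -0.02). Combination-only peaks counted for 2 genes of this list (9.09%) and DMSO-only peaks for 1 (4.55%).

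Shared peaks were found at 3 of 23 NF-kB genes, 3 of 20 p53 targets and 3 of 27 interferon genes, or 13.0%, 15.0% and 11.1%, against 10.7% of all genes. CXCL8, the neutrophil chemokine, had 32 fragments in the combination and 34 in DMSO, a log2 ratio of -0.02. GDF15, a stress cytokine, had 51 and 52, a ratio of 0.04. SESN1, a p53 target of the sestrin family, had 212 and 585 inside the gene where ARMC2 also lies, a ratio of -1.40, with no peak in either single-drug list. For the cell cycle list, 2 of 32 genes (6.25%) had a shared peak. Both peaks lay in a neighbour, RAB5B near CDK2 (ratio -0.15) and CENPB near CDC25B (36 and 85 fragments, ratio -1.17).

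Shared peaks of the AP-1 and Hippo lists were all within 2-fold. CCN1 and CCN2, matricellular genes that YAP activates, had ratios of 0.01 (142 and 148 fragments) and -0.11 (90 and 102). WWTR1, which encodes TAZ, had 323 and 185, a ratio of 0.87, and TEAD1 had 1 peak with a ratio of 0.51 and another with -0.78. None of the WWTR1 and TEAD1 peaks had a peak in a single-drug list. In all, 7 of 26 AP-1 and immediate early genes (26.9%) and 5 of 18 Hippo genes (27.8%) had shared peaks, against 10.7% of all genes. Combination-only peaks lay at 2 of the AP-1 genes (7.69%) and DMSO-only peaks at 1 (3.85%), against 7.50% and 5.43% of all genes. In the Hippo list, STK3 had a combination-only peak of 420 fragments and YAP1 a DMSO-only peak of 21.

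Lineage genes were counted in the same way. Whether a reporter peak at a gene goes with its expression in the cells was not tested, so these counts do not check the identity of the line. Of 26 mesenchymal and basal genes, 12 (46.2%) had a shared peak, the highest share of the lists. Of the 24 luminal genes, 8 did (33.3%), the next highest share, against 10.7% of all protein-coding genes. The blood list (14 genes) and the liver list (12 genes) had 0 genes with a shared or one-list peak. The median log2 ratio was -0.07 over 16 mesenchymal peaks and -0.28 over 9 luminal peaks. SPARC had 341 fragments in the combination and 395 in DMSO, a ratio of -0.14, and TGFBI, a TGF-beta-induced matrix protein, had 218 and 273, a ratio of -0.26. KRT19, a luminal keratin, had 243 and 337, a ratio of -0.40, while CDH1, E-cadherin, had 73 and 61 and was chosen after its ratio of 0.33 was seen. ZEB2, a mesenchymal repressor gene, had 443 and 143 at 1 peak, a ratio of 1.70, with no MG132 peak, and a separate DMSO-only peak of 673 fragments.

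One-list peaks were more numerous in the combination outside the dense windows, with 2661 combination-only and 1747 DMSO-only peaks, and not inside them, with 1012 and 1082. Over both, there were 130 and 95.2 per 1000000 fragments, or 6.42% and 5.92% of each list's peaks. Median lengths were 761 and 730 bp, median pileups 178 and 188 fragments and the median deposited fold 12.8 and 8.84. They lay inside a protein-coding gene in 30.2% (28.7 to 31.7) and 28.1% (26.5 to 29.8) of cases. The dense windows held 27.6% and 38.2% of them, and without those windows the order turned, with 41.6% and 45.6% inside a gene. A one-list peak says that the other list had no peak there, and the height of the other library at that place was not analysed here.

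The single-drug lists shared fewer of the combination's own peaks than of DMSO's own. MG132 peaks overlapped 21.4% (20.1 to 22.7) of combination-only and 26.5% (24.9 to 28.1) of DMSO-only peaks. SHP1705 peaks overlapped 20.8% (19.5 to 22.1) and 26.4% (24.8 to 28.0). Neither single-drug list had a peak at 68.0% and 60.3%. The same order was found over the whole lists, where MG132 overlapped 16.3% of all combination and 18.5% of all DMSO peaks, SHP1705 15.5% and 18.1%, and neither 77.8% and 74.8%. Most peaks of the whole lists were under the length limit, so they are not like the one-list peaks in shape. Among all peaks that passed the length and summit limits, SHP1705 overlapped 50.8% in the combination and 58.2% in DMSO. Neither single-drug list had a peak at 38.3% and 30.3% of these. One-list peaks were thus overlapped less often than all peaks within the same limits. The combination contained both drugs and DMSO neither, and each drug's list overlapped the DMSO-only class more often.

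The order was not the same everywhere. Outside the dense windows, MG132 overlapped 14.2% of combination-only and 20.5% of DMSO-only peaks, and SHP1705 14.5% and 22.3%. Inside the dense windows the order turned, with 40.3% (37.3 to 43.4) and 36.0% (33.2 to 38.9) for MG132 and 37.2% and 33.0% for SHP1705. Among peaks of under 100 fragments, MG132 overlapped 23.9% and 36.3%, and among taller ones 20.3% and 22.7%. Within 1 kb of a gene end, where the median pileup was 84 fragments for 125 combination-only and 32 for 139 DMSO-only peaks, SHP1705 overlapped 55.2% (46.5 to 63.6) and 74.8% (67.0 to 81.3). The DMSO-only excess was therefore widest for low peaks and at gene ends. Both single drugs held 94 of 1144 genic combination-only peaks (8.22%) and 143 of 819 genic DMSO-only peaks (17.5%). Their median pileups were 30.5 and 29.0, near the lowest heights called, 12 in the combination and 13 in DMSO.

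**Figure D5:**
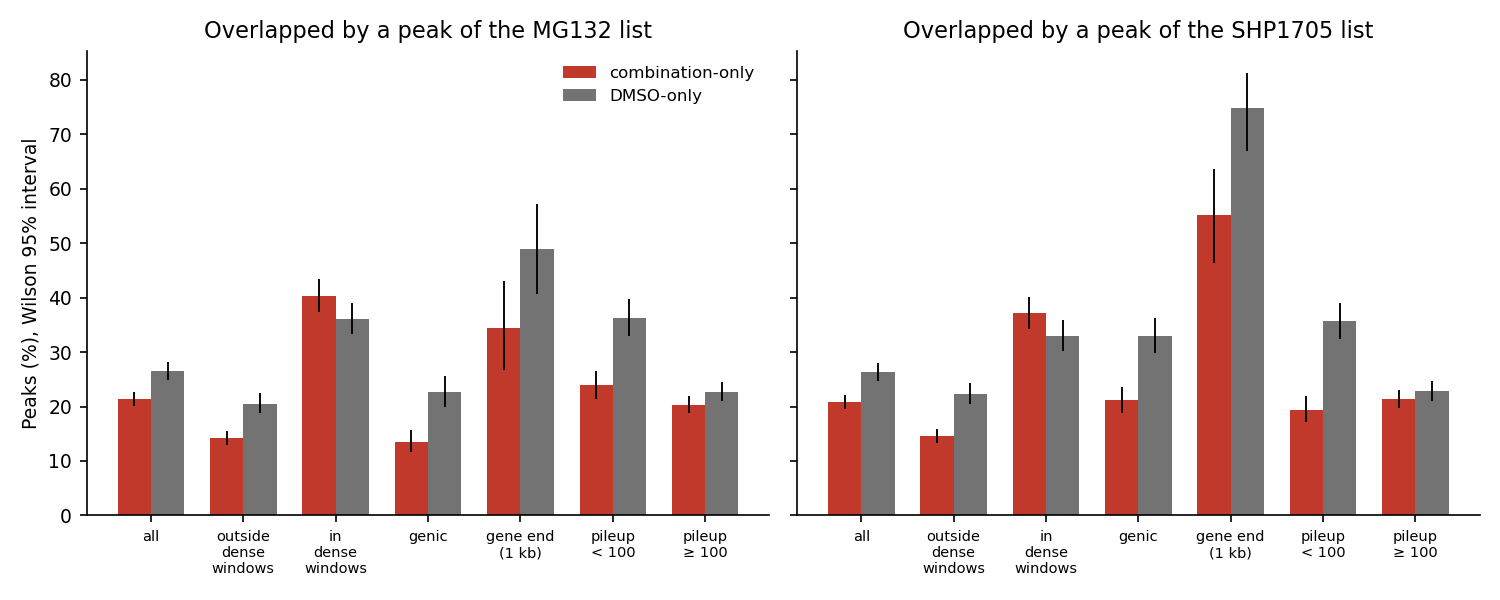
Bars give the percentage of combination-only (red) and DMSO-only (grey) peaks overlapped by a peak of the MG132 list (left) or the SHP1705 list (right), with Wilson 95% intervals, for all such peaks and for classes by place and height. The grey bar is taller than the red in every class but the dense windows, where the red is, and for peaks of 100 fragments or more the 2 bars are nearly level.

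The 10 one-list peaks near genes with the highest authors' -log10 q were taken from each list, of which 4 in the combination and 6 in DMSO had a peak in a single-drug list. The combination's lay in or near SSH2, AHNAK2, OR2T12, SLC37A2, RIT2, RGS5, METTL15, PCBP3, NSUN6 and SV2C. SSH2, which encodes a phosphatase that activates cofilin, reached 1636 fragments, or 57.7 PPM (chr17:29813680-29814308), and neither single drug had a peak there. RGS5, a regulator of G protein signalling, reached 1104 fragments, also with no single-drug peak. AHNAK2, a large scaffold protein gene, reached 1907 fragments, or 67.3 PPM, with MG132 at 32.2 and SHP1705 at 7.18.

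DMSO's lay in or near LOC124904103, MUC17, NLRP3, NR6A1, INPP5A, LOC124902565, CDH4, JAZF1, SEMG2 and RPTOR. MUC17, a membrane mucin gene, reached 2330 fragments, or 78.4 PPM (chr7:101035254-101036019), and NLRP3, the inflammasome sensor gene, reached 1981, both with no single-drug peak. RPTOR, which encodes the mTORC1 subunit raptor, reached 1463, also with none. INPP5A, an inositol phosphatase gene, reached 1794 fragments, or 60.4 PPM, with MG132 at 17.6 and SHP1705 at 3.85.

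Most peaks of either list were no members. In the combination list, 45315 of 57174 peaks (79.3%) overlapped no DMSO peak and were under the length limit of 532.5 bp, 41 were long enough but centred, and 1722 overlapped a DMSO peak without a paired summit. In DMSO, 36824 of 47822 were under the limit of 519 bp, 27 were centred and 1719 were unpaired. Near the limits, 59 pairs with summits 241 to 250 bp apart had a median log2 ratio of -0.15, and 67 pairs at 251 to 260 bp had one of -0.08. Lengths of 533 to 542 bp were found in 76 combination-only peaks, and 115 otherwise like peaks were 523 to 532 bp long. In DMSO, 82 peaks were 519 to 528 bp long and 72 were 509 to 518 bp.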

How the data were processed

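The submitters' processing notes name the hg38 build and Bowtie2, MACS2, FastQC and Trimmomatic. Per the file headers, peaks were called with MACS 2.2.6 in each library alone at a q limit of 0.01, with no control library, duplicates kept and a local background over 10000 bp. The pileup signal was deposited by the authors as whole fragments, without scaling for depth. The fold (a ratio of pileup to background) and the −log10 q are as deposited by the authors. Pileups were scaled to 1000000 fragments (PPM). Ratios carry exact binomial intervals and shares Wilson intervals. Genes and promoters came from RefSeq for GRCh38.p14, and 15812 of 19974 protein-coding genes had a strand. Up to 4 listed genes per list and class were named by −log10 q, and others as stated. The members and lists were chosen with earlier results of these data known, and the dense windows after seeing the data. The rules were tested on simulated lists. Python 3.11.15, pandas 2.3.3, numpy 2.4.6 and scipy 1.17.1 were used. The 10 strongest, 10 highest, 10 lowest and 5 tallest peaks were named by rule. One of the peaks named by rule is not reported here.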

Additional observations from a re-analysis of the deposited data

Results flagged for a closer look

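Peaks outside chromosomes 1 to 22 and X took no part in the comparison. The combination list held 2531 of them among 59705 peaks on all sequences, or 89.3 per 1000000 fragments. The DMSO list held 2041 among 49863, or 68.7 per 1000000 fragments. The count per 1000000 fragments was higher in the combination, whose whole list was also longer, with 1 library on each side and depths not matched. The source of the difference was not tested.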

How the results depend on the processing

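Of 72 alternatives for 13 results, 52 left the value near that reported and 20 moved it. The sign of a single value turned in 0 of them, but 2 comparisons between values turned, that of higher with lower peaks and that of the genic shares. With both peaks of comparable shape, 1928 shared peaks remained, 139 at least 2-fold higher and 183 at least 2-fold lower. Without the dense windows, an alternative chosen after seeing the data, these were 3053, 365 and 434. Also without those windows, the combination-only peaks overlapped MG132 in 14.2% and SHP1705 in 14.5% of cases and lay in a gene in 41.6%, and the DMSO-only peaks, then 1747, gave 20.5%, 22.3% and 45.6%, so that the order of the genic shares turned. With a length of at least 2 fragment sizes, 2197 combination-only and 1626 DMSO-only peaks were left. With no peak of the other list within 1 kb, the combination-only values were 19.1%, 19.0% and 32.4%, and the DMSO-only values for MG132 and for genes were 24.4% and 31.2%. Scaling on the median ratio shifts every log2 ratio by 0.11, which gives 851 peaks at least 2-fold higher and 796 lower, so the split between the directions turns, and the median of genic peaks in all 4 lists goes from -0.18 to -0.06. Depth limits low peaks, since 1 fragment is 0.0353 PPM. No paired analysis was possible because each treatment had 1 library.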
